A study of Mus musculus with 21 samples.

Results

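The genes described here encode the proteins of the cytosolic ribosome. They were taken from the mouse annotation (GENCODE vM1 on mm9, the build of the deposited peaks) as every protein-coding gene whose symbol is Rpl or Rps followed by a number, with an optional letter or a final l. This gave 77 of 22367 protein-coding genes outside the mitochondrial genome, 46 of the large (60S) subunit and 31 of the small (40S) subunit. The S6 kinases and the mitochondrial ribosomal proteins were not included, and neither were the stalk proteins Rplp0 to Rplp2 and other genes whose symbols follow another form.

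Ribosomal protein genes are among the most highly transcribed genes of dividing cells, and their products are needed in equal amounts in every ribosome. Their mRNAs begin with a run of pyrimidines at the cap, the 5′ terminal oligopyrimidine (TOP) tract, through which growth signals control their translation. The vitamin D receptor (VDR) is a nuclear receptor that binds DNA with RXR, classically at DR3 elements, in which a pair of AGGTCA-like half-sites is separated by 3 bases. In the intestine it is known above all for its control of calcium absorption.

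VDR was mapped by ChIP-seq in the epithelium of the colon and in crypts and villi of the duodenum (SI crypt and SI villus), with 4 samples of each. The C57BL/6J mice were injected with 10 ng/g 1,25(OH)2D3, the active hormone, 1 h before they were killed. The labels give an age of 4 to 6 weeks for these mice, while the methods give an older one. No sample of mice without hormone or without antibody was used here, so a peak shows enrichment over the surrounding genome and not a response to the hormone. The methods describe a pair of anti-VDR antibodies used together, with either as the larger part, and the labels do not say which mix served a given sample. ATAC-seq, which reads open chromatin, had 3 samples per compartment, from C57BL/6 mice labelled as 90 days old. The study's methods describe the ATAC-seq mice as untreated, while their labels carry a text that names the hormone. Crypts, villi and colon came from shared groups of mice, and nothing in the labels ties a sample to a mouse, so the spread between samples may be technical in part.

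Each VDR sample held 10588783 to 17970894 fragments, and the pooled list of a compartment held 12702 (SI crypt) to 22882 (colon) peaks. The lists of single samples were far more uneven, from 1138 peaks (SI crypt sample 3) to 13382 (SI crypt sample 1). SI crypt sample 1 also kept the fewest fragments after duplicate removal, 3100376 of 10859762. It stands apart from the other SI crypt samples, which hold 2192, 1138 and 2481 peaks, and the main SI crypt counts are therefore given with and without it. Accessible promoters of marker genes differed most between colon and small intestine. Of 5 villus markers none was open in colon, 4 in SI crypt and, for SI villus, 5, and of 5 crypt markers 2 were open in colon and all 5 in SI crypt and also in SI villus. By sample, of 15 possible calls each (5 markers in 3 samples), SI crypt had 7 at villus markers and 12 at crypt markers, whereas SI villus had 13 and 7. Of 5 colon markers, 4 were open in colon, 2 in SI crypt and, for SI villus, 3. Epithelial markers were open at 4 or 5 of 6, none of 6 immune markers was open in any compartment, and of 6 stromal and endothelial markers Col1a1 was open throughout and Vim in SI crypt and SI villus.

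Chromatin at ribosomal protein promoters was open in every compartment. A promoter was counted when a pooled peak lay within 1 kb of the transcription start site (TSS) of the outermost transcript. An ATAC peak was found at 65 of 77 genes in colon (84.4%, against 49% of all genes), 66 in SI crypt (85.7%, against 55.6%) and, for SI villus, 66 (85.7%, against 52.2%). The median fold enrichment of the strongest promoter peak was 9.29 (colon), 8.44 (SI crypt) and 7.67 (SI villus), beside 8.31, 8.09 and 6.88 over all promoters with a peak. The same 65 genes were open in all 3 compartments. The 66th, Rps4x, the X-linked copy of a small subunit protein, had an ATAC fold enrichment of 6.02 in SI crypt and 3.65 in SI villus, with no listed peak in colon.

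The remaining 11 genes fall into 3 kinds. The paralogues Rpl3l, Rpl10l and Rpl39l, known for their use in muscle or testis, had no ATAC and no VDR peak at the promoter in any compartment. At Rps2 and Rps10 the annotated starts span 3333 and 2375 bp, and an ATAC peak was found once the start of any transcript was allowed, which raised the counts to 67, 68 and 68 genes. At the other 6, with Rpl3, Rpl15, Rps21 and Rps29 among them, the peak caller's tables did list strong ATAC peaks, which are absent from the deposited intervals.

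The start of the gene is shown for the 5 members of highest mean VDR fold enrichment among those with a VDR promoter peak in every compartment and a single start in RefSeq (GRCm38.p6), from 40 bases before the start to 20 from it, with the longest run of C and T within 20 bases of the start in capitals. The run was 13, 9 and 11 bases long at Rpl31, Rps27 and Rps12, and 6 and 5 at Rps23 and Rps7. Of these it crossed the RefSeq start at Rps27 only. It ended before the start at Rpl31 and Rps7 and began after it at Rps12 and Rps23. The capitals thus mark the longest run near the annotated start and not a mapped TOP tract.
Rpl31 (chr1:39367811-39367870, plus strand): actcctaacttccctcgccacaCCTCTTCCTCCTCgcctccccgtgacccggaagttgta
Rps27 (chr3:90213629-90213688, minus strand): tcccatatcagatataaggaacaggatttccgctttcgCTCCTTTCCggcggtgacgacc
Rps12 (chr10:23787190-23787249, minus strand): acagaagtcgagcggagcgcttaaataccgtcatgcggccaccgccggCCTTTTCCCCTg
Rps23 (chr13:90923082-90923141, plus strand): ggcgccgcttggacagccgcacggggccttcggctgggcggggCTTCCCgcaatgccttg
Rps7 (chr12:28635934-28635993, minus strand): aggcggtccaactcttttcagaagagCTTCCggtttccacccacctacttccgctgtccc

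RefSeq held 69 promoter windows for 57 of the 77 genes, each from 250 bases before the start to 50 from it. A run of at least 8 pyrimidines within 20 bases of the start was present in 29 of 69 windows (42%), against 15.8% of 21263 windows of all protein-coding genes. CCGGAAG, a core of ETS factor sites, was present on either strand in 23 (33.3%, against 11.6%) and AAGATGG, a core of YY1 sites, in 11 (15.9%, against 6.24%). GGGCGG, the core of SP1 sites, was present in 39 (56.5%, against 46.2%) and TATAAA in 5 (7.25%, against 12.6%). AGGTCA, the VDR half-site, was present in 10 (14.5%, against 14.7%), so the shares were close.

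The 6 promoters left out touch every count of deposited peaks. The study's methods state that peaks were filtered against the ENCODE blacklist of mm9, and the peaks in question are in the table before that filter and not after it. In colon the ATAC fold enrichment was 10.8 at Rpl3, and at Rpl15, a large subunit protein, it was 11.3 (colon), 11.1 (SI crypt) and 9.48 (SI villus). VDR peaks were missing at 5 of the same genes in colon and SI crypt and at 4 in SI villus. The peaks left out were 9.26% of the ribosomal protein promoters with a VDR peak in the colon table, against 4.71% for all genes, 8.47% against 5.07% in SI crypt and 10% against 4.78% in SI villus. With the unfiltered tables, ATAC peaks were listed at 71, 72 and 72 of the 77 genes.

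VDR peaks lay at many of these promoters. In colon 48 of 77 genes had a pooled VDR peak within 1 kb of the TSS (62.3%, against 22.2% of all genes), in SI crypt 54 (70.1%, against 17.6%) and in SI villus 36 (46.8%, against 24.2%). The order of the compartments, SI crypt above colon above SI villus, was the reverse of the order over all genes. The large subunit had 31, 34 and 21 of 46 genes and the small subunit 17, 20 and 15 of 31. All members with a VDR promoter peak also had an ATAC promoter peak, so the share among open promoters can be set beside that of all open promoters: 73.8% against 42.2% in colon, 81.8% against 30.8% in SI crypt and 54.5% against 45.3% in SI villus. Among promoters with an ATAC fold enrichment of 9 to 12, a VDR peak was listed at 22 of 27 members against 49.8% of all genes in colon, 21 of 22 against 37.9% in SI crypt and 9 of 12 against 51.5% in SI villus. From 6 to 9 it was listed at 14 of 24 against 45.8% in colon and 22 of 32 against 34.8% in SI crypt. In SI villus that bin held most members and went the other way, with 18 of 38 (47.4%) against 53.6%. The unfiltered tables gave 54, 59 and 40 genes, and the start of any transcript gave 53, 60 and 39.

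**Figure D1:**
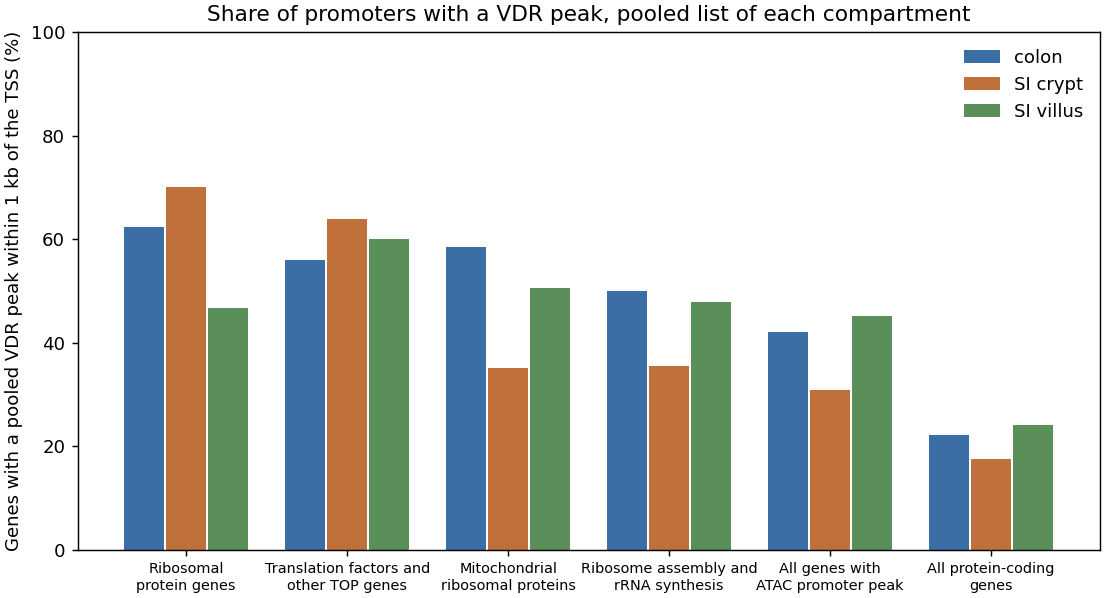
Bars give the percentage of genes with a pooled VDR peak within 1 kb of the TSS, for ribosomal protein genes, 3 related gene lists, all genes with an ATAC promoter peak and all protein-coding genes, in the 3 compartments. Ribosomal protein genes reach 62.3% (colon), 70.1% (SI crypt) and 46.8% (SI villus), and SI crypt is the lowest compartment for all genes (17.6%) and the highest for ribosomal protein genes.

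The pooled peaks came from uneven samples, and this was most marked for SI crypt. A peak within 1 kb of the TSS was listed at 61 of the 77 genes in SI crypt sample 1, and at 4, 3 and 17 in samples 2, 3 and 4. In colon it was 0, 8, 24 and 30 genes in samples 1 to 4, and in SI villus 13, 11, 0 and 1. Ribosomal protein genes were ahead of all genes in each SI crypt sample (79.2% against 20.2%, 5.19% against 2.25%, 3.9% against 1.23% and 22.1% against 2.96%). They were ahead in colon samples 2 to 4 (10.4% against 5.09%, 31.2% against 7%, 39% against 12.4%) and at 0 of 77 in colon sample 1, where 1.78% of all genes had a peak. In SI villus the shares were close to those of all genes, 16.9% against 13.9% and 14.3% against 9.98% in samples 1 and 2, and lower in samples 3 (0 against 1.19%) and 4 (1.3% against 5.7%).

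**Figure D2:**
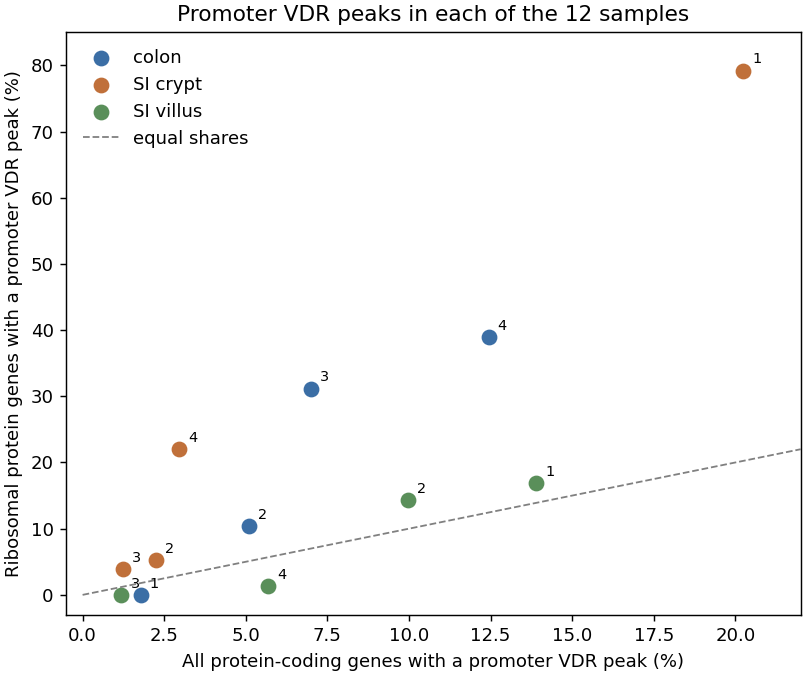
Each point is 1 VDR sample, numbered as in the labels, with the percentage of all protein-coding genes on the x axis and of ribosomal protein genes on the y axis that have a peak of that sample within 1 kb of the TSS. All 4 SI crypt samples and 3 of 4 colon samples lie above the line of equal shares, whereas SI villus samples 1 and 2 lie just above it and samples 3 and 4 under it.

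Sample support separates the compartments further. Of the 54 SI crypt promoter peaks, 51 overlapped a peak of at least 1 sample, but only 17 overlapped a peak of a sample other than sample 1 (22.1% of the members, against 3.44% of all genes counted the same way). Counted by such support, SI crypt without sample 1 was below colon, where leaving out 1 sample at a time left 23 to 34, so among peaks with sample support the first place of SI crypt rests on sample 1. In colon 34 of 48 were seen in at least 1 sample (70.8%, against 60.6% of all promoters with a pooled peak) and 15 in at least 2 (31.3%, against 28.3%), and in SI crypt the shares were 94.4% (against 80.9%) and 31.5% (against 18.3%). In SI villus 17 of 36 were seen in at least 1 sample (47.2%, against 62.1%) and 3 in at least 2 (8.33%, against 32.3%), namely Rpl31, Rpl34 and Rps27a, which is 3.9% of the members against 7.81% of all genes. No promoter peak of a ribosomal protein gene was found in all 4 samples of a compartment. Over the 12 samples, 64 members had a promoter peak in at least 1 (83.1%, against 29% of all genes), 21 in at least 4 (27.3%, against 7.92%), and 2, Rpl15 and Rpl31, in 6 (2.6%, against 3.99%), with none in 8 or more (against 2.1%). A larger share of members than of all genes thus had a peak in at least 1 and in at least 4 samples, and at 6 samples the counts are too few to compare.

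**Figure D3:**
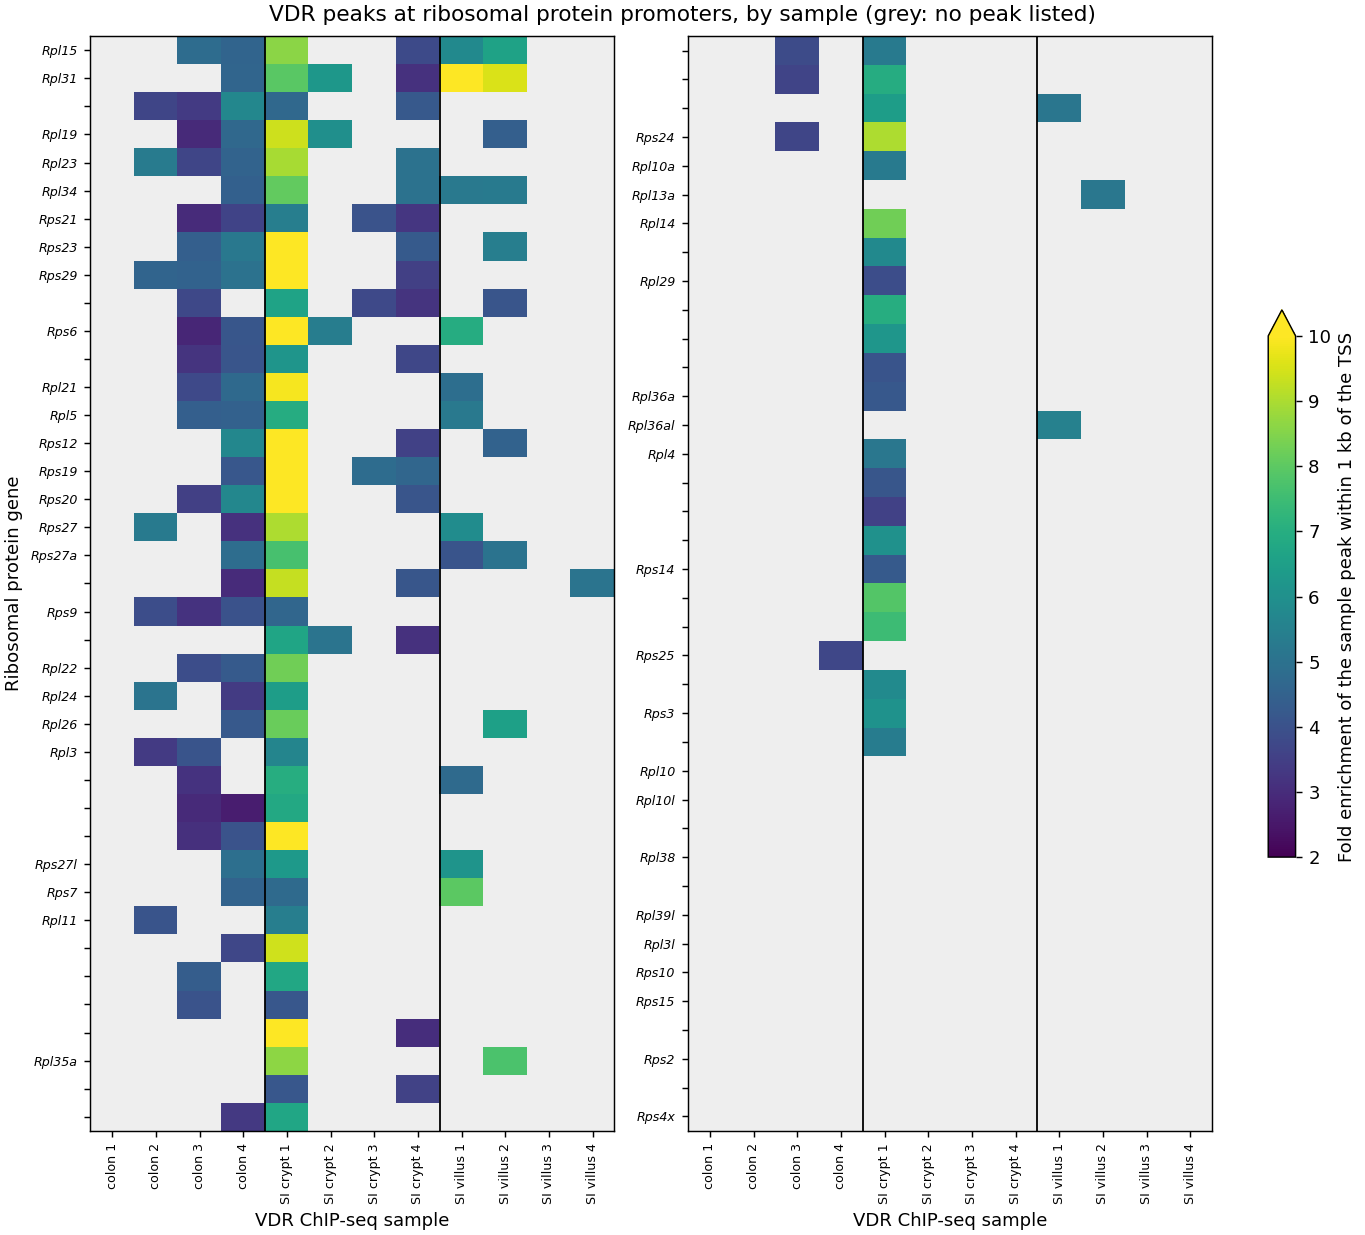
Each row is 1 of the 77 genes and each column 1 VDR sample, with the colour giving the fold enrichment of that sample's peak within 1 kb of the TSS (scale from 2 to 10, higher values in the top colour, grey where no peak is listed, rows ordered by the number of samples with a peak, names given for the genes named in the text). SI crypt sample 1 is filled at 61 genes, while colon sample 1 and SI villus sample 3 are empty.

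The number of samples with a promoter peak was compared between compartments for each gene with a two-sided Fisher's exact test over 4 against 4 samples, adjusted with the Benjamini-Hochberg method over all genes with a peak. No gene of the 5127 to 5797 tested passed an adjusted threshold of 0.05 in any pair, and no ribosomal protein gene reached the smallest p the design allows, 0.0286. Over all genes that p was reached by 10, 25 and 4 genes in the 3 pairs, which is 0.159% (higher in colon) and 0.0177% (higher in SI crypt) for colon against SI crypt, 0.41% (higher in colon) and 0.078% (higher in SI villus) for colon against SI villus, and 0.069% (higher in SI crypt) and 0 (higher in SI villus) for SI crypt against SI villus. For ATAC, 3 against 3 samples cannot go below a p of 0.1, and no gene was called. For VDR, an adjusted p under 0.05 would have needed most of the tested genes to reach 0.0286. This test on listed peaks could therefore not detect differences between compartments at single genes. The paper's own differential binding analysis did report VDR peaks that differed between colon and small intestine.

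Peaks at these promoters were modest in fold enrichment and, in colon and SI crypt, wide. The median fold enrichment of the strongest promoter peak was 3.11 (colon), 3.97 (SI crypt) and 3.8 (SI villus), beside 3.66, 4.14 and 4.08 over all promoters with a peak. Their median −log10 q was 8.5 (colon), 12.5 (SI crypt) and 5.2 (SI villus), beside 6.94, 6.76 and 7.06, so only SI villus was lower. By −log10 q, none of the 48 colon peaks was among the strongest 10% of the pooled list, against 2 of 54 in SI crypt and, for SI villus, 1 of 36. These shares were not counted over all promoter peaks. Widths of at least 500 bp were found for 62.5% of the member peaks in colon and 63% in SI crypt, against 30.6% and 40.1% of all promoter peaks, and for 47.2% against 41.1% in SI villus.

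Among the small subunit genes, Rps19, mutated in Diamond-Blackfan anaemia, had the promoter peak with the highest −log10 q of all members. Its fold enrichment was 10.7, 4.84 and 4.63 in SI crypt samples 1, 3 and 4, with no peak in sample 2, and the pooled SI crypt peak reached 6.54 with a −log10 q of 45.8. In colon a promoter peak was listed in sample 4 alone (4.17), and none in the 4 SI villus samples. Rps20 had 11.6 and 4.12 in SI crypt samples 1 and 4, 3.53 and 5.7 in colon samples 3 and 4, and none in SI villus, where only the pooled list held a peak (3.81).

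Rps6, the substrate of the S6 kinases, was covered in every compartment, with 10.2 and 5.39 in SI crypt samples 1 and 2, 2.85 and 4.13 in colon samples 3 and 4, and 6.95 in SI villus sample 1. Rps9 had peaks in colon samples 2, 3 and 4 (3.88, 3.17 and 4.01), as did Rpl23 of the large subunit. Rps3, which also acts in DNA repair, had a peak in SI crypt sample 1 (6.07) and none in the other 11 samples. Rps27l, a paralogue of Rps27 that p53 is known to induce, had 1 supporting sample in each compartment (4.93, 6.34 and 6.13). Rps27a, which is made as a fusion with ubiquitin, had 2 in SI villus (4.09 and 5.03).

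Of the large subunit genes, Rpl31 carried the highest SI villus promoter peak and, with Rpl15, had peaks in more samples than any other member. Its fold enrichment was 10.6 and 9.55 in SI villus samples 1 and 2, 7.95, 6.23 and 3.14 in SI crypt samples 1, 2 and 4, and 4.6 in colon sample 4. The pooled values were 6.94 in SI villus (−log10 q 34), 4.91 in SI crypt (27.1) and 3.26 in colon (15.1), and the 3 summits lay 497, 511 and 513 bp after the TSS. Among SI villus promoter peaks this is an exception, since the next member, Rps7, reached a −log10 q of 12.2.

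Several others with pooled peaks in all 3 lists had like records. Rps23, a protein of the decoding centre, had 4.43 and 5.2 in colon samples 3 and 4, 10.2 and 4.28 in SI crypt samples 1 and 4 and 5.42 in SI villus sample 2. Rpl19 had 2.96 and 4.7, 9.4 and 5.97 (SI crypt samples 1 and 2) and 4.41. Rpl34 was seen in SI villus samples 1 and 2 (5.22 and 5.29), in SI crypt samples 1 and 4 (8.08 and 5.01) and in colon sample 4 (4.46). Rps24 and Rpl24 had no SI villus sample behind their pooled peaks (3.66 and 4.2), while Rps7 had 1 sample in each compartment, the highest in SI villus (7.98). Rps27 had 5.25 and 3.14 in colon samples 2 and 4, 9.02 in SI crypt sample 1 and 5.88 in SI villus sample 1. Rps12 had 5.71 in colon sample 4, 10.0 and 3.54 in SI crypt samples 1 and 4 and 4.53 in SI villus sample 2. In each of these genes the highest SI crypt value was that of sample 1.

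For Rpl35a and Rpl36al, a second copy of the Rpl36a protein gene, SI villus held the higher of 2 pooled peaks (5.3 and 4.63, against 3.27 and 3.19 in SI crypt) and no peak was listed in colon. Each SI villus peak had 1 sample behind it (7.73 and 5.5). By sample the order at Rpl35a was the reverse, with 8.65 in SI crypt sample 1, while Rpl36al had no SI crypt sample peak. Rps14, whose loss underlies the anaemia of the 5q- syndrome, had pooled peaks of 3.3 in SI crypt and 3.08 in SI villus with 1 SI crypt sample behind them (4.27). Rps25 had no pooled peak and 3.72 in colon sample 4.

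Rpl5 and Rpl11 form with 5S RNA the particle that restrains MDM2 and so stabilises p53. Rpl5 had 4.41 and 4.48 in colon samples 3 and 4, 6.94 in SI crypt sample 1 and 5.22 in SI villus sample 1. Rpl11 had 4.08 in colon sample 2 and 5.42 in SI crypt sample 1, and only a pooled peak (3.24) in SI villus. Rpl23, also an MDM2 partner, had 5.33, 3.66 and 4.53 in colon samples 2 to 4 and 8.95 and 5.02 in SI crypt samples 1 and 4. Rpl21 held the highest −log10 q of the colon list among members (19.9), with 3.78 and 4.75 in samples 3 and 4. Rpl22 and Rpl26, the latter a binder of p53 mRNA, had pooled peaks in all 3 lists, highest in SI crypt (4.77 and 4.67), with 1 SI crypt sample behind each. Rpl10, the last protein to join the 60S subunit, had pooled peaks in colon (3.47) and SI crypt (3.49) with no peak in any single sample. Rpl13a and Rps15 had no pooled promoter peak. In the deposited intervals, Rpl29 is the 1 member whose pooled promoter peak was listed in a single compartment with at least 2 samples behind it. The deposited SI crypt interval is centred on its summit and 1992 bp wide, with the summit 1930 bp after the TSS, close to the end of a gene of 2115 bp. The peak caller's own pooled intervals did not reach within 1 kb of the Rpl29 TSS in any compartment. Within 1 kb of the TSS a single sample had a peak (3.89). A pooled SI villus peak (3.6, with 2 samples behind it) had its summit at nearly the same place, 1995 bp after the TSS, and did not reach the promoter window, so peaks at Rpl29 were not limited to SI crypt.

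Most VDR summits lay inside the genes, downstream of the ATAC summit. In SI villus 5 of 36 lay outside the gene (13.9%, against 28.1% of all genes with a VDR promoter peak). ATAC summits were centred on the TSS (median −7, −17.5 and −14 bp in colon, SI crypt and SI villus), whereas VDR summits lay at a median of 312, 268 and 215.5 bp after it, beside 195, 209 and 182 bp for all promoters with a VDR peak. In colon 48 of 48 and in SI crypt 54 of 54 members had the VDR summit downstream of the TSS, against 66.9% and 73.6% of all genes, and in SI villus 31 of 36 against 72.1%. The result does not rest on the annotated start, since 48 of 48 and 54 of 54 VDR summits were also downstream of the gene's own ATAC summit (65.1% and 69.9% of all genes), by a median of 312 and 285.5 bp, and 28 of 36 in SI villus (68%). Among members whose annotated starts all lie within 100 bp, the medians were 265, 226 and 147 bp. In the single SI crypt samples the median was 246, 303.5, 497 and 368 bp, over 61, 4, 3 and 17 members. The downstream position was thus also seen without sample 1, though mainly in sample 4. The VDR interval overlapped an ATAC interval at 43 of 48 genes in colon (89.6%, against 75.8% of all genes with a VDR promoter peak), 44 of 54 in SI crypt (81.5%, against 85.9%) and, for SI villus, 35 of 36 (97.2%, against 91.6%). The VDR summit itself lay within an ATAC interval at 11 of 54 in SI crypt (20.4%, against 50.7%), and near the share of all genes in colon (22 of 48, 45.8% against 49.6%) and in SI villus (26 of 36, 72.2% against 70%). The summit was in an intron at 28 genes in colon (58.3%, against 37.2%), 28 in SI crypt (51.9%, against 35.5%) and, for SI villus, 13 (36.1%, against 32.4%), and in an exon at 20 (41.7%, against 29.3%), 26 (48.1%, against 37.9%) and 18 (50%, against 39.5%). Many ribosomal protein genes have processed pseudogenes, and how reads that match both were placed was not given in the sources at hand.

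**Figure D4:**
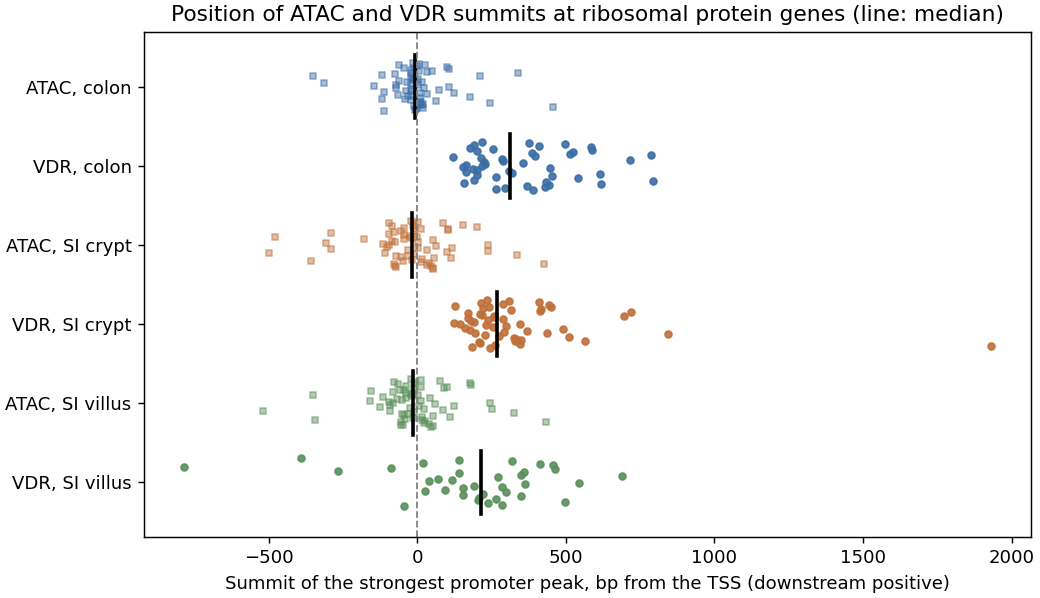
Points give the distance in bp from the TSS to the summit of the strongest promoter peak of each ribosomal protein gene, for ATAC (squares) and VDR (circles) in the 3 compartments, with the median as a black line. ATAC medians lie between −17.5 and −7 bp, and VDR medians between 215.5 and 312 bp, with all colon and SI crypt VDR points to the right of the TSS.

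The DR3 element (A or G, G, G or T, then TCA, for each half-site, on either strand) was found in the promoter window of a single member, Rpl3l, the muscle paralogue without any peak (1 of 69 windows, 1.45%, against 8 of 21263, 0.0376%). At VDR summits (201 bases of mm9 centred on the summit) it was found at 0 of 50 member promoter peaks in colon, 0 of 54 in SI crypt and, for SI villus, 0 of 37, where all promoter peaks held it in 0.656%, 0.664% and 0.508% and peaks away from promoters in 2.43%, 2.97% and 2.16%. At these rates fewer than 1 match would be found in lists of this size, so no difference from other promoters was detectable. AGGTCA was present at 3, 5 and 4 of the member summits (6%, 9.26% and 10.8%), against 15.5%, 11.9% and 12.8% of all promoter summits and 24%, 19.5% and 21% of summits away from promoters. The 1 DR3 match at a VDR summit of the gene group lay near the 3′ end of Rpl14, 323 bp before the end of the gene, under a colon peak of fold enrichment 2.74 that no single sample supported. Both matches are shown with the element in capitals and 5 bases on either side, followed by 61 bases centred on the strongest pooled SI villus promoter summit of the members (Rpl31, in an intron), in which neither AGGTCA nor DR3 was found.
Rpl3l promoter (GRCm38.p6 chr17:24732438-24732462, plus strand): ctgcaAGGTCATTCGGGTCAttgtc
Rpl14 colon summit (mm9 chr9:120483437-120483461, plus strand): gctaaAGGTCAGAAGGGTCAgaaga
Rpl31 SI villus summit (mm9 chr1:39425163-39425223, plus strand): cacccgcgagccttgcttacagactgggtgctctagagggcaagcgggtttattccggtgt

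VDR peaks were also found where these genes end. This comparison was added after the data had been seen. Among the 67 members longer than 2 kb, a pooled VDR peak lay within 1 kb of the 3′ end at 45 in colon (67.2%, against 14.5% of all genes of that length), at 25 in SI crypt (37.3%, against 6.36%) and, for SI villus, at 4 (5.97%, against 7.83%). Other genes of 1.5 to 6 kb, the size of most members, had such a peak in 14.5%, 7.35% and 7.66%. ATAC peaks at the same ends were listed at 7, 11 and 7 members (10.4%, 16.4% and 10.4%, against 6.29%, 9.48% and 9.26% of all genes of that length). Of the 45 colon genes, 5 had both, an overlap that was not counted over all genes. The summits of the colon peaks lay a median of 520 bp beyond the 3′ end, 35 of 45 of them downstream of it, and 4 of these windows held the TSS of another protein-coding gene. Of the 25 SI crypt genes, 24 were among the 45 of colon (96% and 53.3% of the lists). The same overlap was not counted over all genes, so it cannot be called particular to these genes.

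By sample, the 3′ end peaks followed another order than the promoter peaks. In colon they were listed at 8, 15, 22 and 4 of 67 members in samples 1 to 4 (11.9%, 22.4%, 32.8% and 5.97%, against 1.7%, 3.1%, 5.29% and 3.3% of all genes). Sample 1, without a promoter peak at any member, held 8 of them, and sample 4, with 30 promoter peaks, held 4. In SI crypt they were listed at 13, 1, 1 and 11 members (19.4%, 1.49%, 1.49% and 16.4%, against 5.34%, 0.419%, 0.53% and 1.5%), and 9 pooled peaks kept support without sample 1. In SI villus they were listed at 2, 0, 0 and 2 (2.99%, 0, 0 and 2.99%, against 2.62%, 1.29%, 0.43% and 2.93%), near the shares of all genes. Rps19 again stood out, with a colon peak 936 bp past its end (fold enrichment 4.78, −log10 q 34) that was matched in all 4 colon samples and in 2 SI crypt samples (4.46). Rpl4 had 3 of 4 samples in colon (3.29) and 3 of 4 in SI crypt (5.73), and Rpl10a had 3 and 3 (3.73 and 3.97).

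**Figure D5:**
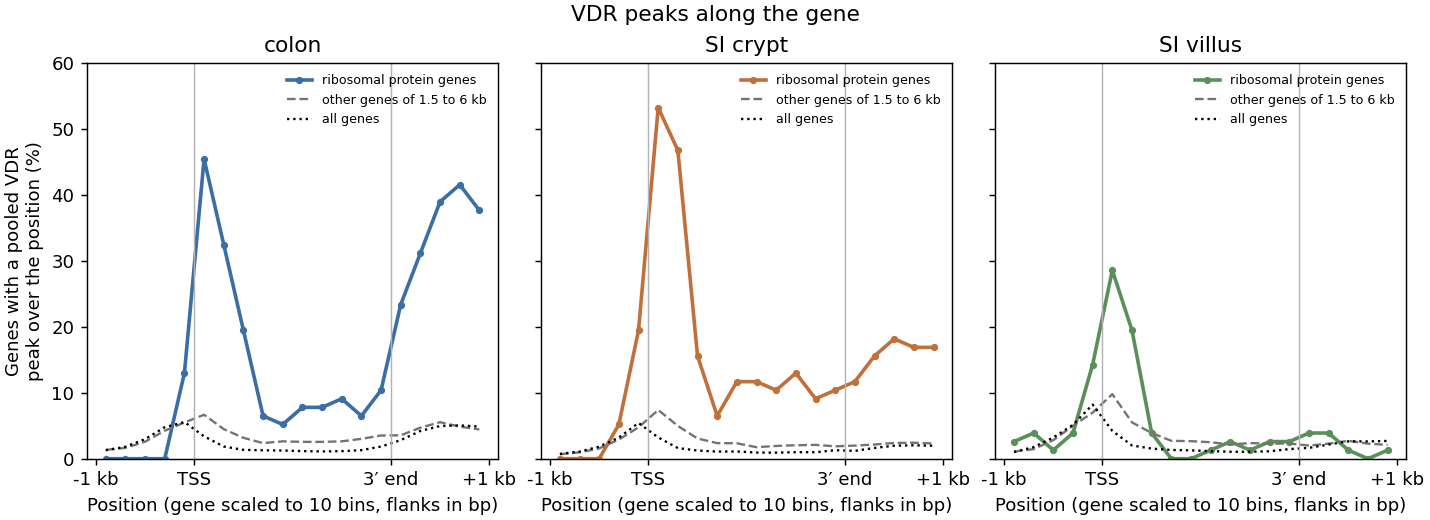
Lines give the percentage of genes with a pooled VDR peak over each position, from 1 kb before the TSS, through the gene scaled to 10 bins, to 1 kb after the 3′ end, for ribosomal protein genes, other genes of 1.5 to 6 kb and all genes. Ribosomal protein genes rise just after the TSS in all 3 compartments (45.5%, 53.2% and 28.6% in the first gene bin) and again after the 3′ end in colon (up to 41.6%) and less so in SI crypt (up to 18.2%), but not in SI villus.

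A pooled VDR peak overlapped the gene body beyond 1 kb from the TSS at 25 of 75 members in colon (33.3%, against 28% of all genes long enough). In SI crypt it was 24 (32%, against 18.5%) and, for SI villus, 7 (9.33%, against 20.7%). Some summits lay outside this stretch. At Rpl10a in SI crypt the summit was 2796 bp after the TSS of a gene of 2562 bp, and at Rps12 in colon 452 bp after it. These peaks are therefore in part the promoter and 3′ end peaks already described. The genes are short (median 3232 bp, against 15427 bp), so that these peaks amounted to 12.3, 10 and 2.97 per 100 kb of gene body, against 1.13, 0.61 and 0.918. The highest belonged to Rpl38, a protein known for its part in the translation of Hox mRNAs, 1930 bp after the TSS in SI crypt and colon, with a fold enrichment of 6.59 in SI crypt (3 samples), 6.57 in SI villus (2 samples) and 3.86 in colon (1 sample). With a −log10 q of 63.5 in SI crypt and 40.4 in SI villus it exceeded every other gene body peak of the members, the next being that of Rpl10a in SI crypt (36.2). Rpl24 carried a peak of 6.19 in SI crypt, 7611 bp into an annotated span of 42639 bp and with 2 samples behind it.

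In related gene groups the compartments stood in another order. The 77 mitochondrial ribosomal protein genes had a VDR promoter peak at 45 in colon (58.4%), 27 in SI crypt (35.1%) and, for SI villus, 39 (50.6%), and the 48 genes of ribosome assembly and rRNA synthesis at 24, 17 and 23 (50%, 35.4% and 47.9%), so that in both SI crypt was lowest, as over all genes. The 25 translation factors and other genes with TOP mRNAs, which include the stalk proteins, had 14, 16 and 15 (56%, 64% and 60%). Their summits lay a median of 486, 277.5 and 239 bp after the TSS (ribosomal protein genes 312, 268 and 215.5 bp), against 137, 106 and 86 bp for mitochondrial ribosomal proteins and 7.5, 93 and 91 bp for assembly genes. Of the stalk proteins, Rplp2 had a fold enrichment of 5.24 in SI crypt, 3.01 in colon and 3.4 in SI villus, within the range of the members. Gnb2l1, the scaffold protein of the 40S subunit also called RACK1, was named after its values were seen, since it lay above every member, at 9.19, 9.83 and 20.1 (colon, SI crypt and SI villus). It was not the highest of the related genes. Pabpc1 of the same list had 19.1, 22.4 and 31.8, and Nsun5 of the assembly genes 26.2, 30.5 and 36.4, both also named after their values were seen. No test was made of the differences between these groups.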

How the data were processed

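The members and gene lists were chosen with earlier results of these data known. The authors aligned reads to mm9, pooled the samples of a compartment and called peaks with MACS2 for each sample and each pool. The submitters' processing notes name Bowtie2 2.2.6, SAMtools 0.1.19, Picard 2.18.27, bedtools 2.17.0, cutadapt 1.9.1 and MACS2 2.1.0.20150731. The deposited tables give for each peak a fold enrichment, a linear ratio over local background, and the −log10 of its q-value, and neither is scaled for depth between lists. The deposited pooled intervals keep each peak's length, are centred on its summit and lack 2.12 to 5.83% of the peaks, a step the methods describe as a filter on the ENCODE blacklist, whereas sample peaks were read from the unfiltered tables. The authors' differential binding lists and 1-bp summit lists were not used.

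Peaks were assigned to a promoter by any overlap with 1 kb on either side of the TSS, and a pooled peak was supported by a sample whose peak it overlapped by at least 1 bp. The strongest peak was the one of highest −log10 q. Named genes were the members with VDR peaks in all 3 lists (up to 12 by mean fold enrichment), the 5 of highest −log10 q in each list or over gene bodies, those in 1 list with 2 or more samples, those without an ATAC peak, and fixed sets of p53-linked, disease-linked and tissue-restricted members. Overlaps and the exact test (Python 3.11.15, scipy 1.17.1) were tested on simulated data. No 2 samples held identical lists. Alternatives changed the window, the threshold, the samples, the intervals, the start sites and the gene set. Some members are counted but not reported by name here.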

Additional observations from a re-analysis of the deposited data

Results flagged for a closer look

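In data outside the main counts, the tables written before the blacklist filter, VDR peaks at ribosomal protein promoters that are absent from the deposited intervals were found at 5 colon genes, 5 SI crypt genes and 4 SI villus genes. ATAC peaks of this kind were found at 6 genes of each compartment. Rpl3, Rpl15, Rps21 and Rps29 had them in both assays, and among them are VDR peaks of fold enrichment 5.92 at Rps29 and 5.6 at Rpl15 in SI crypt. Whether these loci gather reads for a technical reason was not tested. Dixon's test on 6 sets of 4 VDR samples (member counts and member share over all-gene share, in each compartment) found no sample outside its 95% limit, although SI crypt sample 1 held 61 members beside 4, 3 and 17.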

How the results depend on the processing

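Of the alternatives, those on window, midpoint, intervals, start sites and gene set kept all promoter counts within 1.5 times the value reported, and all ATAC counts stayed there. Demanding support moved VDR promoter counts: at least 2 samples left 15 in colon, 17 in SI crypt and, for SI villus, 3, and at least 1 sample left 17 in SI villus. A −log10 q of at least 5 left 20 in SI villus, and equal numbers of strongest peaks left 23. Gene body counts with 1 supporting sample were 14 in colon, 12 in SI crypt and, for SI villus, 3, and 14 in SI crypt at a −log10 q of at least 5. Members with a peak in any sample numbered 19 without SI crypt sample 1 and 61 without any other, and 12 (without sample 1) to 21 in SI villus.

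The following alternatives were chosen after seeing the data. Leaving out 1 sample at a time from the support of at least 1 gave 23 to 34 promoters in colon (27 without sample 3, 23 without sample 4), 17 to 51 in SI crypt (17 without sample 1) and, for SI villus, 10 to 17 (10 and 11 without samples 1 and 2). For 3′ ends, support left 28 in colon (19 to 27 with a sample left out, lowest without sample 3, and 25 without sample 4), 13 in SI crypt (9 to 13, lowest without sample 1) and, for SI villus, 2 (1 to 2), and a −log10 q of at least 5 left 16 in SI crypt and, for SI villus, 2. The cause of these moves was not tested, except that fewer samples or peaks were counted.

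With the replicate block 0 genes passed in every per-gene test, as without it, since the smallest p that 4 pairs allow is 0.125. Same-numbered VDR samples correlated between -0.31 and 0.51, so the numbers were not taken to pair samples. Fold enrichment is not scaled between lists, and precision is limited by 1138 to 13382 peaks per VDR sample.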
